A study of Homo sapiens with 12 samples.

Results

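Cells carrying betaglycan (BG) with 1 of its 2 glycosaminoglycan (GAG) attachment serines removed were compared with cells carrying BG without either serine or an empty vector, pooled. All 12 libraries of the series entered the comparison, 6 in each pool, and every gene of the count table was considered. The single-chain pool held 3 libraries of S534A and 3 of S545A, in which serine 534 or serine 545 is replaced by alanine. The reference pool held 3 libraries labelled ∆GAG, in which both serines are replaced, and 3 labelled control vector. The study names S534A for chondroitin sulfate (CS-BG) and S545A for heparan sulfate (HS-BG), the chain type meant to predominate on each, and the name does not limit S534A to chondroitin sulfate. All cells were HEYA8, an established human ovarian cancer line, in regular serum-containing growth medium, a condition the labels call resting. Each construct was a stable line made with a lentiviral vector and sorted for dTomato, so each group stands for 1 transduced population, and nothing in the labels ties the libraries of a group to separate transductions. The third S545A library is titled S545S-3 but labelled S545A by genotype, and was counted with S545A.

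Betaglycan, the type III TGF-β receptor encoded by TGFBR3, is a co-receptor that binds TGF-β and inhibin and presents ligand to the signaling receptors. Its extracellular domain carries the GAG chains, and it can be cleaved from the cell surface to give a soluble form that holds ligand away from cells. The signaling receptors phosphorylate SMAD proteins, which regulate target genes in the nucleus. TIMP3, a secreted inhibitor of metalloproteinases, is the gene the study followed up.

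The coding sequence altered by the constructs is shown because the pools are defined by it. It is the reference sequence of transcript ENST00000212355.8 (GENCODE release 29, GRCh38), residues 530 to 549, at chr1:91716628-91716687 on the minus strand, and the capitals mark the codons of serine 534 and serine 545, each followed by a glycine codon.
TGFBR3: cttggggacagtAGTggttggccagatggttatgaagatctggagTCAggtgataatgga
Both codons lie in exon 11 of 17, with serine 534 encoded by bases 91716673 to 91716675 and serine 545 by bases 91716640 to 91716642. Because reads were counted over whole genes, neither the mutated codons nor construct and endogenous transcripts could be told apart.

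Total counts ran from 16410001 to 29504297 (median 26850083.5) in the single-chain libraries and from 21241205 to 29246939 (median 22359806) in the reference libraries. Levels are given as CPM (each library's counts scaled to a common total) after TMM scaling, and 3 counts, the limit that a count of 0 allows, were 0.100 to 0.181 CPM, which covers counting error only. Libraries 2 and 3 of S545A, ∆GAG and control vector were close to repeats of each other: the chi-square of their counts, divided by its degrees of freedom, was at most 1.98, whereas the other 9 pairs of one group ran from 17.2 to 77.8. The p-values therefore measure the spread between libraries, which may in part be technical. Some libraries of different groups were closer than those 9 pairs. S534A 1 stood at 3.98 with S545A 1 and at 7.42 with control vector 1, and S534A 3 stood at 4.06 with control vector 2. Along the first principal component S534A library 2 stood apart from the rest, and along the second the library labelled ∆GAG 1. Of 22 marker genes of blood, endothelial, fibroblast and fat cells, 16 did not pass the filter on low counts, among them PTPRC, PECAM1 and DCN. The 6 that passed included KDR and COL1A1. All 22 summed to 207 to 487 CPM in the single-chain and 366 to 450 CPM in the reference libraries, so these markers were not all absent. COL1A1 held at most 13.4 CPM in the single-chain libraries, and which markers made up most of the sum is not given here. Of 15 genes of ovarian cancer lineage 7 passed it, including PAX8 and WT1, and MUC16, WFDC2 and SOX17 did not.

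TGFBR3 was higher in every single-chain library than in every reference library. It stood at 477, 413 and 455 CPM in S534A libraries 1, 2 and 3 and at 574, 524 and 522 CPM in those of S545A. The 3 libraries labelled ∆GAG held 261, 20.2 and 21.3 CPM, and those labelled control vector held 16.0, 259 and 258 CPM. The reference pool thus had 3 libraries near 260 CPM and 3 near 20 CPM, and this split did not follow the ∆GAG and control labels. ∆GAG-BG is itself expressed from TGFBR3, so its level goes against the label in part of these libraries, and the pooled comparison does not depend on how they are divided.

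**Figure D1:**
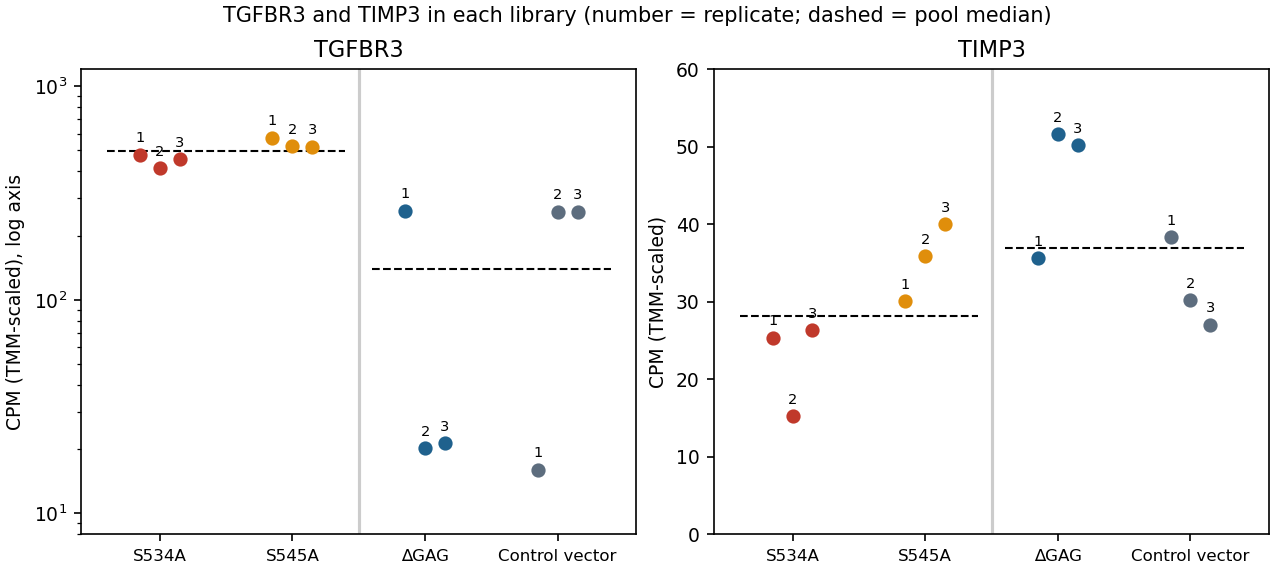
TGFBR3 (left, log axis) and TIMP3 (right, linear axis from 0) in CPM in each library, numbered by replicate, with the median of each pool dashed. All 6 single-chain libraries lie at 413 CPM or more for TGFBR3 and all 6 reference libraries at 261 CPM or less, whereas the pools overlap for TIMP3.

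The TGFBR3 mean was 494 ± 57.2 CPM (SD, n = 6) in the single-chain pool and 139 ± 132 CPM (SD, n = 6) in the reference pool, a log2 fold change of 1.83 (standard error 0.67, 95% interval 0.38 to 3.27). By edgeR's quasi-likelihood test the unadjusted p was 0.0169 and the adjusted p over all genes was 1.00. By limma-voom, and as the difference of mean log2 CPM, the value was 2.81. A two-sided exact permutation test of log2 CPM gave p = 0.00216, the smallest that 6 against 6 libraries allow. With libraries 2 and 3 of the 3 near-repeat groups averaged, the exact p was 0.0159, again the smallest that the 5 and 4 values allow. TGFBR3 ranked 70 by p among all genes tested and 2 by log2 fold change. 

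TIMP3 overlapped between the pools. It ran from 15.2 to 40.0 CPM (median 28.2) in the single-chain libraries and from 27.0 to 51.6 CPM (median 37.0) in the reference libraries. The log2 fold change was -0.43 (standard error 0.217, 95% interval -0.90 to 0.04), with an unadjusted p of 0.0686 by edgeR and a two-sided exact permutation p of 0.104. The 3 lowest values of all 12 libraries were those of S534A, at 25.4, 15.2 and 26.3 CPM, and the S545A libraries held 30.1, 35.9 and 40.0 CPM. In a model with S534A, S545A and the pooled reference as 3 groups, TIMP3 was -0.80 in S534A (unadjusted p = 0.00384) and -0.14 in S545A (unadjusted p = 0.539) on the log2 scale by edgeR. The difference between the mutants had an unadjusted p of 0.0223 by edgeR, and no adjusted p of TIMP3 was under 0.05. The pooled TIMP3 call depended on the model, and an unadjusted p under 0.05 was reached with 3 groups (0.0213), with the 4 labelled groups (0.0127) and with DESeq2 (0.0466).

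Across all genes, no gene separated the pools after adjustment. edgeR tested 15340 genes and called 0 (0%) at an adjusted p under 0.05, with a smallest adjusted p of 1.00, and DESeq2 and limma-voom also called 0. At an unadjusted p under 0.05 there were 294 genes (1.92%), of which 161 (1.05%) were higher and 133 (0.867%) lower in the single-chain pool. The 1.92% is below the share of 0.05 that this threshold passes when no gene differs and libraries are independent. Differences were small, with a median absolute log2 fold change of 0.0673 against a median standard error of 0.115. Only 20 genes differed by at least 2-fold, 12 higher and 8 lower, and 7 of these had an unadjusted p under 0.05. The 7 were TGFBR3, ANGPTL4 and S100A3, higher, and PLEKHA7, NHSL2, RGCC and SDF2L1, lower; S100A3 and RGCC were named after their values were seen.

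**Figure D2:**
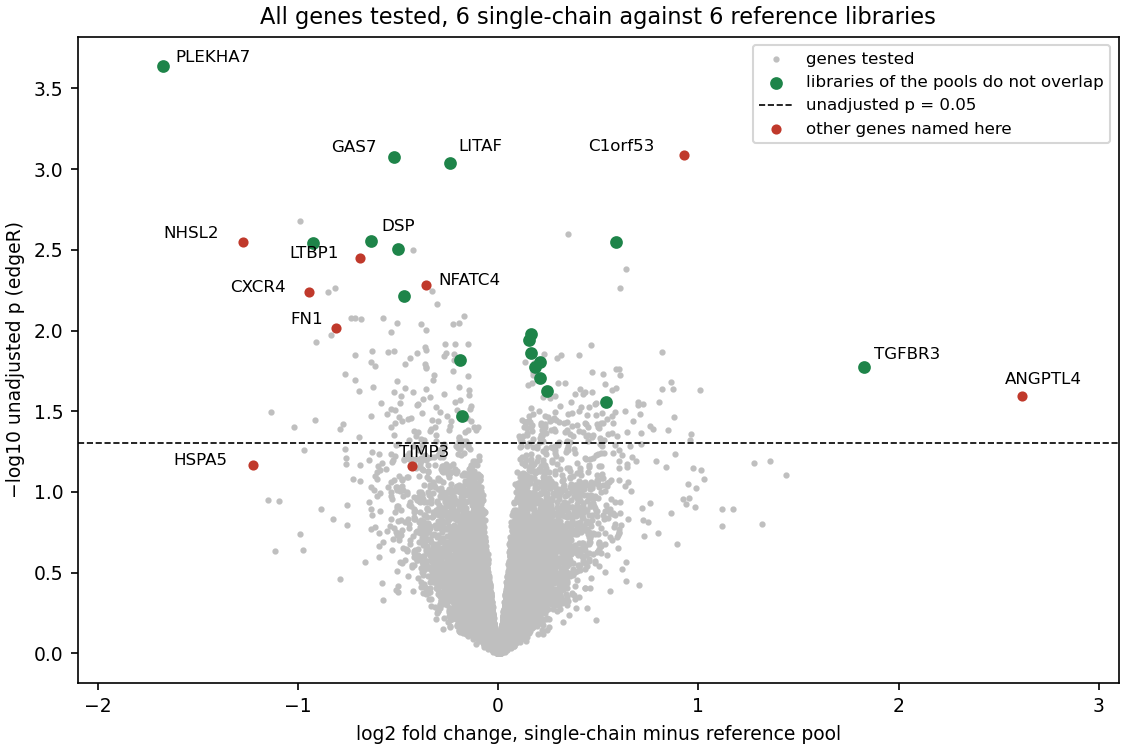
Log2 fold change of the single-chain against the reference pool (x axis) and −log10 of the unadjusted p by edgeR (y axis) for the 15340 genes tested. The 19 genes whose libraries do not overlap between the pools are in green, and TGFBR3 and ANGPTL4 lie furthest to the right.

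In 19 genes (0.124%) the libraries of the pools did not overlap, 10 (0.0652%) higher and 9 (0.0587%) lower in the single-chain pool. A random split of interchangeable libraries, 6 against 6, separates a gene at a rate of 0.00216. The 0.124% is no excess over that rate. The higher genes besides TGFBR3 were TTC8, NR2F2, CTSA, DAB2IP, LINC00667, RP11-1148L6.8, AC093323.3, RP11-332M2.1 and RP11-127B20.2. The lower genes were PLEKHA7, GAS7, LITAF, DSP, EVC2, LY75, GOLGA2P5, SH3PXD2A and STT3B. Those outside the naming rule, DAB2IP, LINC00667, RP11-332M2.1, RP11-127B20.2, SH3PXD2A and STT3B, were listed after their values were seen. All 19 had an unadjusted p under 0.05 and none had an adjusted p under 0.05 by edgeR.

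PLEKHA7, a component of the adherens junction, had the smallest p of all genes. It ran from 0.143 to 0.582 CPM (median 0.464) in the single-chain libraries and from 0.764 to 2.09 CPM (median 1.15) in the reference libraries. The log2 fold change was -1.67 (standard error 0.34, unadjusted p = 0.000230 by edgeR), at a level close to the counting limit and with exon overlap with the pseudogene OR7E14P on the opposite strand. DSP encodes desmoplakin, which anchors keratin filaments at desmosomes. It ran from 18.3 to 45.5 CPM (median 39.0) in the single-chain libraries and from 48.8 to 64.4 CPM (median 58.2) in the reference libraries. Its log2 fold change was -0.64 (standard error 0.175, unadjusted p = 0.00281 by edgeR). S534A library 2 was the lowest for DSP, and the other 5 single-chain libraries still lay below every reference library.

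LTBP1 binds latent TGF-β and places it in the extracellular matrix. It ran from 9.10 to 17.4 CPM (median 12.6) in the single-chain libraries and from 14.8 to 29.4 CPM (median 18.7) in the reference libraries, a log2 fold change of -0.69 (standard error 0.196, unadjusted p = 0.00355 by edgeR). FN1, which encodes fibronectin, ran from 321 to 650 CPM (median 492) and from 434 to 1417 CPM (median 860), respectively. Its log2 fold change was -0.81 (standard error 0.269, unadjusted p = 0.00967 by edgeR). In both genes the highest reference values were those of the libraries labelled ∆GAG 1 and control vector 1, at 29.4 and 25.6 CPM for LTBP1 and at 1417 and 1041 CPM for FN1. COL6A3, a collagen VI chain, had a log2 fold change of -0.83 (unadjusted p = 0.0107 by edgeR), with its highest value, 19.9 CPM, in the library labelled control vector 1. CXCR4, the receptor of the chemokine CXCL12, showed the same feature. It was at 6.14 and 6.47 CPM in the libraries labelled ∆GAG 1 and control vector 1, at 2.46 to 2.65 CPM in the other 4 reference libraries and at 1.45 to 2.78 CPM in the single-chain libraries. Its log2 fold change was -0.94 (standard error 0.289, unadjusted p = 0.00576 by edgeR), and apart from those 2 libraries its levels overlapped. With the replicate number as a block, the log2 fold change by edgeR was -0.67 for LTBP1 (unadjusted p = 0.000183), -0.75 for FN1 (0.00474), -0.80 for COL6A3 (0.00886) and -0.83 for CXCR4 (0.00492).

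The remaining lower genes differed in how their reference libraries were spread. LITAF, a lysosomal membrane protein gene, was tightly grouped at 32.1 to 36.1 CPM (median 34.8) against 38.6 to 45.1 CPM (median 39.6), with a log2 fold change of -0.24 (unadjusted p = 0.000921 by edgeR). GAS7, an actin-associated gene, stood at 2.39 to 3.15 CPM against 3.27 to 4.45 CPM (log2 fold change -0.52, unadjusted p = 0.000838 by edgeR). EVC2, a component of the primary cilium in Hedgehog signaling, stood at 0.181 to 0.901 CPM against 0.926 to 1.29 CPM. NHSL2 and C14orf132 were high in the same 3 reference libraries in which TGFBR3 was low. NHSL2 held 4.72, 4.68 and 5.08 CPM in the libraries labelled ∆GAG 2, ∆GAG 3 and control vector 1, and 1.48 to 2.22 CPM in the other 3 reference libraries. C14orf132 held 4.26, 5.31 and 6.44 CPM in those libraries and 2.22 to 3.87 CPM in the others. Both gene levels in the remaining reference libraries reached those of the single-chain libraries, at most 2.02 CPM for NHSL2 and 2.74 CPM for C14orf132.

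Among higher genes the differences were smaller. NR2F2, an orphan nuclear receptor, ran from 103 to 124 CPM (median 109.5) in the single-chain libraries and from 94.7 to 102 CPM (median 100.2) in the reference libraries, a log2 fold change of 0.15 (standard error 0.0526, unadjusted p = 0.0115 by edgeR). TTC8, a subunit of the BBSome that carries cargo to cilia, was at 16.6 to 17.2 CPM against 14.0 to 16.2 CPM, a log2 fold change of 0.17 (unadjusted p = 0.0105 by edgeR). CTSA, a lysosomal carboxypeptidase, was at 78.5 to 108 CPM against 71.0 to 78.0 CPM, with its highest value in S534A library 2 and with exon overlap with PLTP, NEURL2 and another gene on the opposite strand. C1orf53 had the smallest p of the higher genes, with 0.581 to 1.44 CPM against 0.377 to 0.674 CPM, a log2 fold change of 0.93 (standard error 0.218, unadjusted p = 0.000817 by edgeR). ANKRD18A had a log2 fold change of 0.64 and CRACR2B, a regulator of store-operated calcium entry, of 0.35, and both share exon sequence with other genes. BLOC1S4, KCNN3, TMEM141, SLC37A1, C11orf68 and the unnamed transcripts RP5-901A4.1 and RP11-417L19.6 completed the 15.

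**Figure D3:**
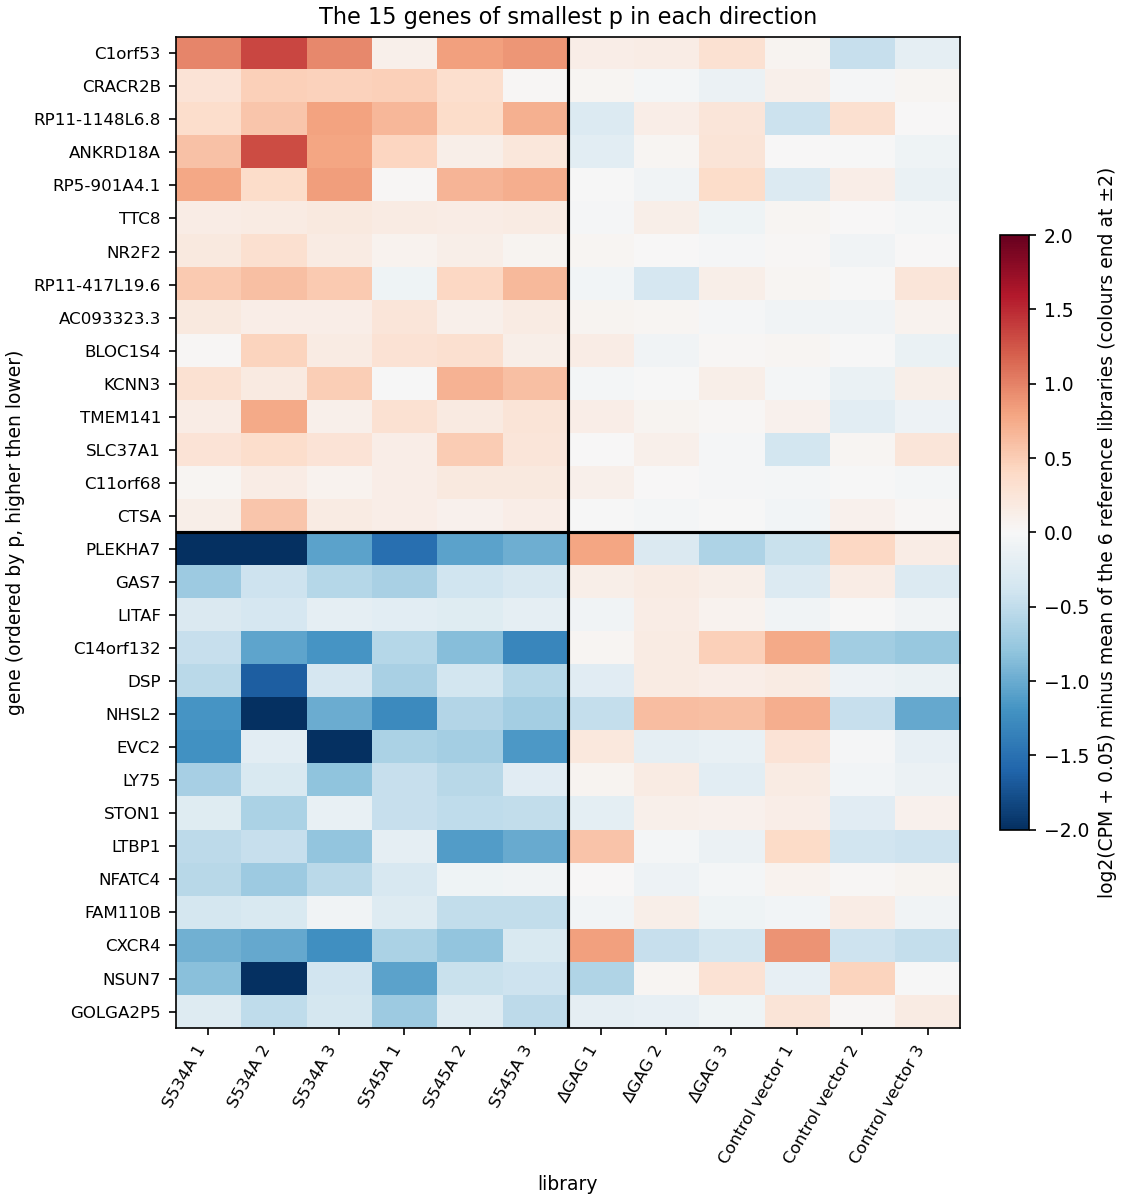
Log2(CPM + 0.05) minus the mean of the 6 reference libraries for the 15 genes of smallest p in each direction (rows) in each library (columns), with colours ending at ±2. Single-chain libraries form the left block, and CXCR4 and LTBP1 are highest in the libraries labelled ∆GAG 1 and control vector 1.

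Of the 30 genes of smallest p, 12 had pools that did not overlap, and all 30 kept an unadjusted p under 0.05 by edgeR when each library was left out in turn. Under other settings 6 of the 30 did not keep it: BLOC1S4, C11orf68, KCNN3 and TMEM141 with near-repeat libraries summed, and AC093323.3, TTC8 and again C11orf68 with no filter on low counts. All 30 were chosen by this same p. Of the 30, 25 were protein-coding and 13 shared exon sequence with another gene of the table. Whether counting used strand is not given in the sources used here, so reads of such genes may be shared.

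Each mutant was set against the same 6 reference libraries, which the 2 comparisons therefore share. By edgeR in the 3-group model, S534A gave 968 of 16069 genes (6.02%) at an unadjusted p under 0.05, of which 583 (3.63%) were higher and 385 (2.4%) lower. S545A gave 212 (1.32%), of which 125 (0.778%) were higher and 87 (0.541%) lower. S545A against S534A directly gave 1002 genes (6.24%), 422 (2.63%) higher and 580 (3.61%) lower in S545A. These counts moved with single libraries. The S534A count was 291 without S534A library 2, 637 or 616 without control vector library 2 or 3, 1600 without S534A library 1 and 2895 without S534A library 3. The S545A count was 109 without S545A library 2, 327 without S534A library 2, 588 without the library labelled ∆GAG 1 and 598 without S545A library 1. Between the mutants the count was 322 without S534A library 2, 347 or 355 without S545A library 2 or 3, 2319 without S545A library 1 and 3003 without S534A library 3, so the counts give no order of the mutants. After adjustment 1 gene (0.00622%), CHI3L2, was called in S534A and also between the mutants (0.00622%), while S545A against the reference called 0 (0%). CHI3L2, a chitinase-like secreted protein, held 81, 36 and 26 counts in S534A libraries 1, 2 and 3 and at most 2 counts in each of the other 9 libraries, under the 3 counts of their limit. It did not pass the filter for the 2 pools, and it passed that for the 3 groups only through the S534A libraries. Both calls rest on those same 3 libraries, so they are not separate results.

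Of the 30 genes, 3 had an unadjusted p under 0.05 between the mutants by edgeR, namely ANKRD18A, NR2F2 and NFATC4. Among all genes 1002 of 16069 (6.24%) did, and a count of 3 in 30 is too small to tell from that share. NFATC4, a calcium-regulated transcription factor, was at 11.8, 10.4 and 11.9 CPM in S534A, at 13.8, 16.3 and 16.5 CPM in S545A and at 16.1 to 18.1 CPM in the reference libraries. Its log2 fold change was -0.61 in S534A and -0.16 in S545A, with an unadjusted p of 0.000587 for their difference by edgeR. ANKRD18A was 0.93 in S534A and 0.26 in S545A on the same scale (unadjusted p of the difference 0.00392 by edgeR). TGFBR3 was 1.69 in S534A and 1.95 in S545A, with an unadjusted p of 0.789 for the difference by edgeR, and LTBP1 was -0.63 and -0.75 (0.679).

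**Figure D4:**
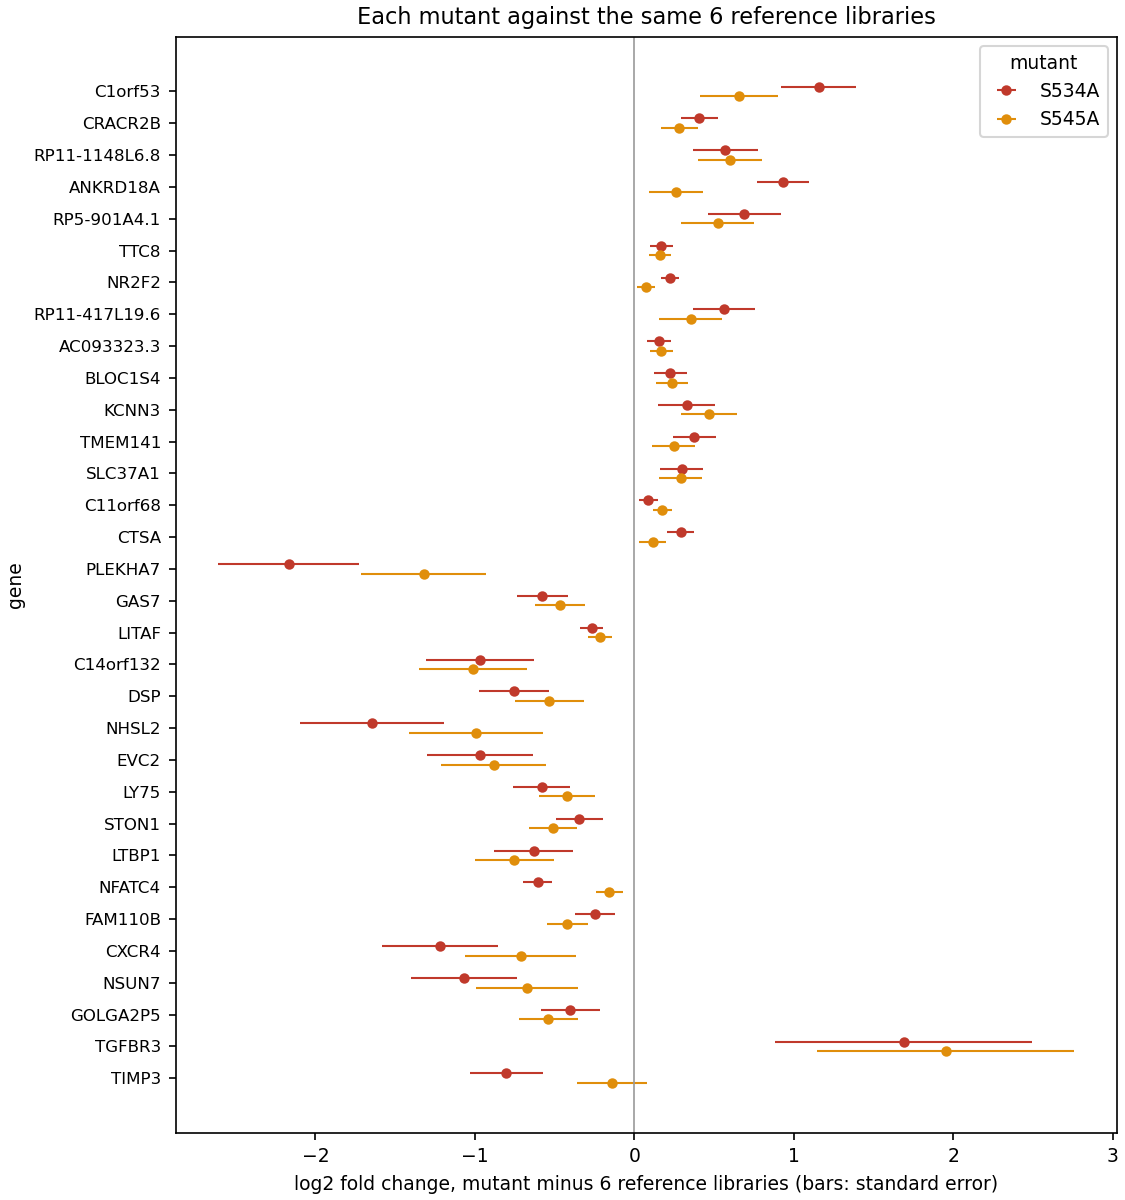
Log2 fold change (x axis, with standard errors) of S534A and of S545A against the same 6 reference libraries for the 30 genes of smallest p, TGFBR3 and TIMP3. NFATC4, ANKRD18A and TIMP3 lie further from 0 in S534A, while TGFBR3 lies near 2 in both.

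Some genes of smallest p against the reference in 1 mutant differed less in the other. They were picked by that p, and the direct comparison of the mutants reuses the same libraries. Small p-values of the difference are therefore favored by the choice and give no separate support. SEMA5A, a semaphorin, had a log2 fold change of -0.91 in S534A and -0.05 in S545A (unadjusted p of the difference 0.000566 by edgeR). PPARGC1A, a coactivator of mitochondrial genes, was at -0.96 and 0.05 (0.000560). In the other direction COL4A3, a collagen IV chain, was at -0.31 in S534A and 0.86 in S545A (0.00361), and ZNF704 at 0.45 and -1.20 (0.000400). The genes of smallest p in S534A were also C1orf53, PLEKHA7, LINC01119, LL22NC03-2H8.5 and RP1-118J21.25, and in S545A PLEKHA7, STON1, FAM110B, PALM2, MFSD2B, RNU6-850P, RNU6-762P and RP11-380G5.3.

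Gene lists were described by counts and medians beside all genes tested, for which 1.92% had an unadjusted p under 0.05 and the median log2 fold change was 0.00369. Of all genes 7917 lay above 0 and 7423 below. By edgeR the all-gene count at an unadjusted p under 0.05 was 537 of 15629 without the library labelled ∆GAG 1. It was 279 of 15327 without S534A library 2 and 606 of 15369 without both. List counts from those fits are to be read beside these. No member of any list had an adjusted p under 0.05 by edgeR. Of 12 receptors of the TGF-β family tested, only TGFBR3, the gene of the constructs themselves, had an unadjusted p under 0.05. The others lay between -0.06 and 0.10 on the log2 scale, including TGFBR1 at 0.08 and TGFBR2 at -0.02. Of 20 ligands and binding proteins, 1 did (LTBP1), and of 16 SMADs and regulators, 0. SMAD7, an inhibitory SMAD, had a log2 fold change of 0.47 (unadjusted p = 0.15 by edgeR).

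Of 34 TGF-β/SMAD3 targets tested 3 had an unadjusted p under 0.05, ANGPTL4 higher and FN1 and COL1A1 lower, with a list median of 0.10. Without S534A library 2 the median was -0.00152, with 17 members below 0 and 2 at an unadjusted p under 0.05, and without the library labelled ∆GAG 1 there were 6 such members and a median of 0.13. The ANGPTL4 value rested on S534A library 2, which held 56.1 CPM against 0.787 to 3.48 CPM in the other single-chain libraries and 0.849 to 4.10 CPM in the reference libraries. Without that library its log2 fold change went from 2.62 to 0.05 (unadjusted p = 0.922 by edgeR). BMP targets had a median of 0.23 and 0 of 14 members at an unadjusted p under 0.05, with ID1 at 0.57, ID2 at 0.98 and ID3 at 0.44. Without S534A library 2 that median was 0.00767. Wnt targets gave 1 of 13 (FZD7, a Wnt receptor, -0.24) and genes of FGF/ERK signaling 0 of 23.

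Of 40 genes that build and modify GAG chains, 1 had an unadjusted p under 0.05, GLCE, the epimerase of heparan sulfate, at -0.15 (0.0349 by edgeR). The list ran from -0.42 to 0.22 with a median of 0.0116. Among 19 proteoglycans TGFBR3, the gene of the constructs, was the only one, and syndecans SDC1 to SDC4 lay between -0.30 and 0.25. Of 50 proteases and inhibitors 0 had an unadjusted p under 0.05 (median 0.0341), with ADAM17 at -0.17, ADAM10 at -0.01, MMP14 at 0.02, TIMP1 at 0.10 and TIMP2 at -0.01. The protease count was 5 without S545A library 3 (all genes 346 of 15289) and 3 without S545A library 2 (all genes 320 of 15613). The protease median ran from -0.018 without S534A library 2 to 0.10 without the library labelled ∆GAG 1. Of 41 collagens and other matrix genes 3 did, namely FN1, COL6A3 and COL1A1, all lower, and of 20 epithelial-mesenchymal genes FN1 alone.

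**Figure D5:**
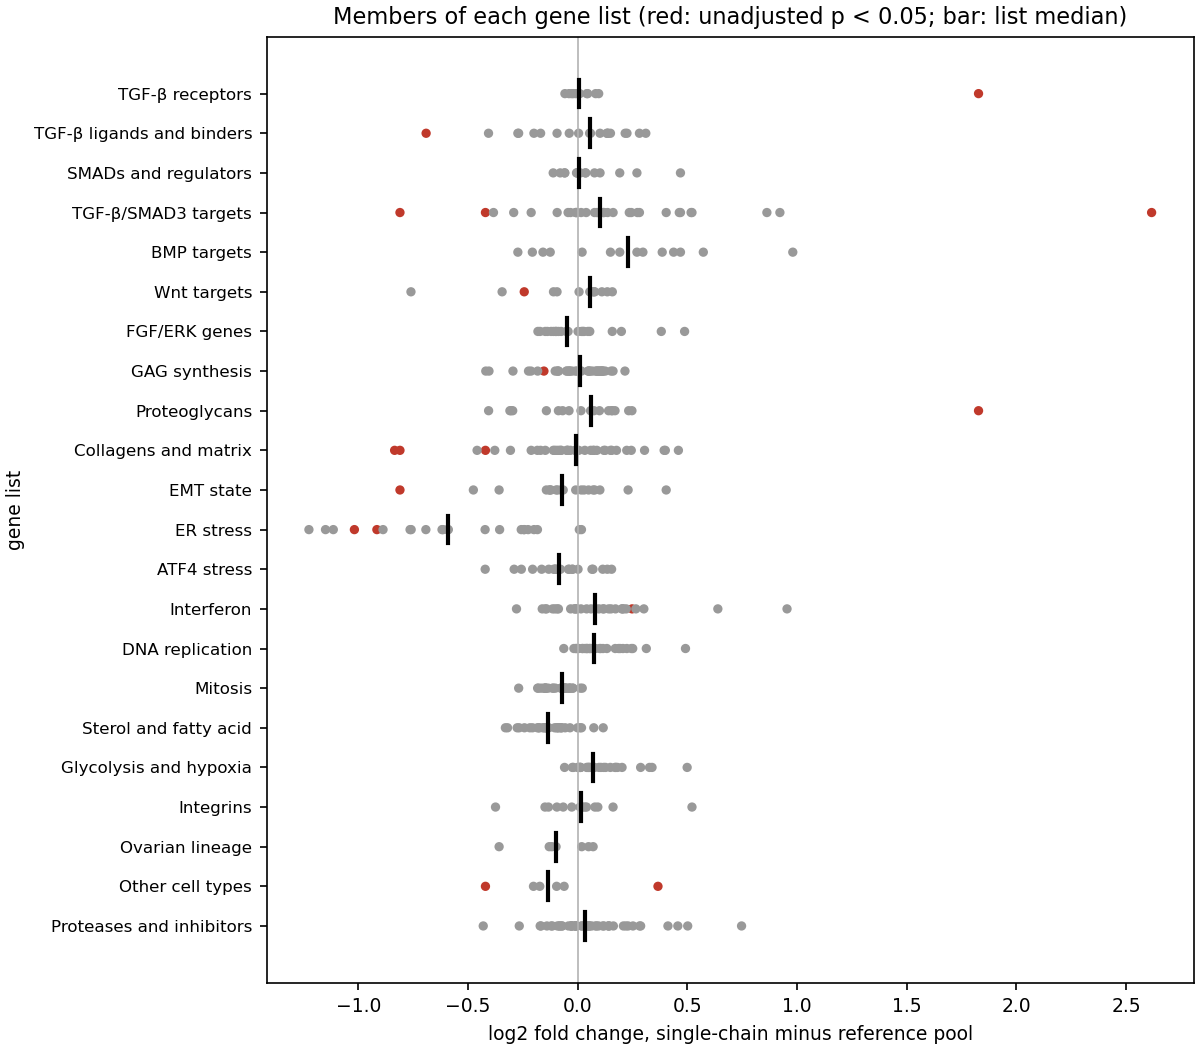
Log2 fold change (x axis) of each tested member of 22 gene lists (rows), with the list median as a bar and members at an unadjusted p under 0.05 in red. Most medians lie near 0, and the endoplasmic reticulum stress list, at -0.59, lies furthest from it.

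The list furthest from 0 was that of endoplasmic reticulum (ER) stress, the chaperones and enzymes made when unfolded protein builds up in the ER. Of 23 genes, 21 had a log2 fold change below 0, with a median of -0.59, and 2 had an unadjusted p under 0.05, PDIA4 and SDF2L1. HSPA5, the main ER chaperone, was at 11910 CPM in the library labelled ∆GAG 1, at 1222 to 3893 CPM in the other reference libraries and at 287 to 2635 CPM in the single-chain libraries, with the 287 in S534A library 2. The summed level of the list was 23810 CPM in the library labelled ∆GAG 1 and 5161 to 9782 CPM in the other reference libraries. In the single-chain pool it was 2522 CPM in S534A library 2 and 5529 to 7680 CPM in the others. Without the library labelled ∆GAG 1 the median was -0.11 with 19 below 0, and without S534A library 2 as well it was -0.023 with 15 below 0, and 0 members had an unadjusted p under 0.05 either way. The count of 2 moved both ways with single libraries. It was 9 without the library labelled ∆GAG 3 (all genes 250 of 15645). It was 7 without ∆GAG 2 (all genes 273 of 15647) or control vector 1 (all genes 292 of 15329). It was 1 without control vector 2 or S534A 3 and 0 without S534A 1, S534A 2 or S545A 1. PDIA4 had an unadjusted p of 0.160 and SDF2L1 of 0.214 by edgeR without the library labelled ∆GAG 1.

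In lists of cell growth most members lay on 1 side of 0, with small values and 0 members at an unadjusted p under 0.05. All genes split nearly evenly, as given above, and the counts on each side were not tested. The all-gene split in fits that leave out libraries is not given here. Of 31 DNA replication genes 27 lay above 0 (median 0.0736), and of 30 mitosis genes 28 lay below 0 (median -0.0724). Of 32 genes of sterol and fatty acid synthesis 28 lay below 0 (median -0.14), and of 29 genes of glycolysis and hypoxia 25 lay above 0 (median 0.0703). Without S534A library 2 the replication list had 25 of 31 and the glycolysis list 26 of 30 below 0, and the mitosis list had 15 of 30. The sterol list then had 22 of 32 below 0. Without the library labelled ∆GAG 1 the sterol list had 30 of 32 below 0 (median -0.27) and 5 members at an unadjusted p under 0.05, and the mitosis list had 30 of 30 below 0 (median -0.16) and 2 such members. The glycolysis list then had 10 of 30 below 0 and 2 such members, and the replication list 20 of 31 below 0 and 0 such members. Without both libraries 31 of 31 replication genes lay below 0.

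Of 33 interferon-induced genes 1 had an unadjusted p under 0.05, PSMB8, an immunoproteasome subunit, at 0.25 (0.0345 by edgeR), with 34.9 CPM in S534A library 2 against 21.5 to 23.9 CPM in the other single-chain libraries. It shares exon sequence with PSMB8-AS1. Of 23 genes of the ATF4 stress response, 15 integrin subunits and 7 lineage genes, 0 did, with medians of -0.0834, 0.0156 and -0.0985. The ATF4 median changed sign with single libraries, at 0.0674 without S534A library 2 and 0.0700 without the library labelled ∆GAG 1, where 2 members had an unadjusted p under 0.05. Without both it was 0.195, with 3 such members and 1 of 23 below 0. Of the 6 markers of other cell types tested, 2 did, KDR at 0.37 and COL1A1 at -0.42, and the summed level of all markers was 207 to 487 CPM in the single-chain and 366 to 450 CPM in the reference libraries. Leaving out single libraries removed the unadjusted call of several genes named from lists: it held in 3 of 12 such fits for COL1A1 and for FZD7, in 5 for GLCE, in 6 for SDF2L1, in 8 for PDIA4 and PSMB8 and in 9 for KDR, while FN1 and COL6A3 held in all 12. Without S534A library 2 and the library labelled ∆GAG 1 together, FN1 was at -0.51 on the log2 scale (unadjusted p = 0.0608 by edgeR). With the replicate number as a block, the unadjusted p by edgeR was 0.147 for ANGPTL4, 0.0855 for SDF2L1, 0.0571 for PDIA4 and 0.0514 for FZD7. For the other genes named from lists that p stayed under 0.05.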

How the data were processed

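RNA of 12 HEYA8 libraries was sequenced from a directional kit. The authors deposited raw counts per gene. The submitters' processing notes name FastQC, Trim Galore 0.4.5, STAR 2.4, SAMtools 1.2 and featureCounts, and the mouse builds mm10 and GRCm38, whereas the table holds human genes, of which 36113 of 56269 symbols are in GENCODE release 29 and 33603 have its GRCh38 coordinates. Strand use and annotation release are not given in the sources used here. The study used bioJupies for differential expression. All 37 mitochondrial genes hold 0 counts.

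The deposited counts were filtered with filterByExpr (minimum count 10) and TMM-scaled. The 2 pools were compared by the robust quasi-likelihood test of edgeR 4.0.16 under R 4.3.3, with 10 residual degrees of freedom, with Benjamini-Hochberg adjustment over 15340 genes. The biological coefficient of variation was 0.161. A 3-group model (16069 genes) gave each mutant against the pooled reference. In 245 genes, none named by the rule below, edgeR raised p because their spread fell below that of counting. RP11-127B20.2, listed above among the genes whose pools did not overlap, was among them. The tests were also tried on simulated data with the levels, spread and depth fitted here. The simulated libraries were independent, unlike the near-repeat pairs of these data. Total counts per library are given above.

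Named were TGFBR3 and TIMP3, the 15 genes of smallest p in each direction with a mean of at least 1 CPM in a pool, up to 4 members per list with an unadjusted p under 0.05, the 5 genes of smallest p in each direction for each mutant, CHI3L2 and HSPA5. The genes, lists and tests were chosen with earlier results of these data known. CCN1 and CCN2 were matched to CYR61 and CTGF. Alternatives were DESeq2 1.42.0, limma-voom 3.58.1, other scalings and filters, 3 or 4 groups, the replicate number as a block, near-repeat libraries summed and each library left out. Leaving out S534A library 2 and ∆GAG library 1 together was added after seeing the data.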

Additional observations from a re-analysis of the deposited data

Results flagged for a closer look

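In 84 combinations of a named gene and a pool of 6 libraries, 11 held a library far from the other 5 by Dixon's test. Its nominal rate of about 1 in 20 holds for independent genes that were not selected. Most of these genes were chosen by p in the same libraries, so the 11 cannot be judged against that rate. Of the 11, 6 were S534A library 2 and 3 the library labelled ∆GAG 1.

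S534A library 2 was highest of the single-chain pool for ANGPTL4 (56.14 CPM, others at most 3.485), CTSA (107.9, others at most 82.62), TMEM141 (19.86, others at most 14.48) and PSMB8 (34.91, others at most 23.91). It was lowest for DSP (18.26 CPM, others at least 36.74) and PDIA4 (65.15, others at least 121.2).

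The library labelled ∆GAG 1 was highest of the reference pool for PDIA4 (600.9 CPM, others at most 219.2), SDF2L1 (68.15, others at most 21.45) and C11orf68 (141.6, others at most 133.3). S534A library 3 was highest of its pool for COL1A1 (13.36 CPM, others at most 9.987), and S545A library 1 lowest for RP11-417L19.6 (0.8905 CPM, others at least 1.279). What sets these libraries apart was not tested.

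CHI3L2 differed between the mutants, with a fitted log2 fold change of -5.914 in S545A against S534A (adjusted p = 0.0118 by edgeR). Its counts in S545A were at or under the counting limit, so that fitted value depends on the prior count and gives no bound.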

How the results depend on the processing

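The pooled comparison called 0 genes at an adjusted p under 0.05 in every setting run. The 294 genes at an unadjusted p under 0.05 became 158 with near-repeat libraries summed, 1066 with no filter on low counts (33903 genes tested) and 606 without S534A library 2 and ∆GAG library 1 together. Leaving out 1 library gave 232 to 537, the 537 without ∆GAG library 1. TGFBR3 kept its side of the threshold in every setting run, at 1.59 to 2.10 with 1 library left out and 2.81 by limma-voom. TIMP3 passed an unadjusted p of 0.05 with 3 groups (-0.47), 4 labelled groups (-0.45) and DESeq2 (-0.43). With 1 library left out it ran from -0.55 to -0.30 and passed without control vector library 2 or 3 or S545A library 2 or 3. S534A against the pooled reference, with 1 gene called, gave 5 by DESeq2 (CHI3L2, NFATC4, ANKRD18A, SEMA5A and PLEKHA7) and 0 with at least 10 counts in every library, a filter that removes CHI3L2. With 1 library left out it gave 0 to 1, the 0 without control vector library 1. S545A against S534A, with 1 called, gave 0 under that filter, 0 with near-repeat libraries summed and 0 to 1 with 1 library left out, the 0 without control vector library 1 or any S545A library. The cause was not tested. With the replicate number as a block TGFBR3 was 1.83 (unadjusted p = 0.0274) and TIMP3 -0.44 (0.0832) by edgeR, and 0 genes were called. The deviations of same-numbered libraries of the pools correlated at 0.357 for number 1, -0.102 for number 2 and 0.391 for number 3. Because the sign was not uniform, the numbers were not taken as pairs in the main fit. The libraries are nevertheless not free of structure shared across groups. Genes near the counting limit of 0.100 to 0.181 CPM, such as PLEKHA7 and EVC2, are limited by depth.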
